A study of Mus musculus with 26 samples.

Results

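RNA of Aδ low-threshold mechanoreceptors (Aδ-LTMRs) was compared with RNA of Aβ rapidly adapting mechanoreceptors (Aβ RA-LTMRs), in 3 libraries against 5. They are 8 of 26 libraries from 8 subtypes of dorsal root ganglion neuron. The libraries were chosen by the subtype in their titles, and no measured value entered the choice. Aδ-LTMRs were sorted from mice with TrkBCreER and the tdTomato reporter Ai14 at R26, given tamoxifen at 2 mg a day on embryonic days 12 to 13. Aβ RA-LTMRs were sorted from Npy2r-GFP mice, which had no tamoxifen. Both kinds of mice were adults at postnatal day 23 or later, and ganglia came from all axial levels. Each library held neurons from several mice and several rounds of sorting, and its RNA was amplified before library preparation. Allele, reporter colour and tamoxifen differ together with the subtype, so their effects cannot be told apart from it. A cell entered a library by its reporter, which marks the activity of 1 gene and does not exclude other cells that use the same gene.

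Aδ-LTMRs have thinly myelinated axons that end around hair follicles and respond to the lightest deflection of a hair. Aβ RA-LTMRs have thickly myelinated, fast axons, which end around hairs or in touch corpuscles and fire at the onset and offset of a touch. Spike shape, conduction speed and adaptation of such neurons depend on their sodium, potassium and calcium channels, on the calibre that neurofilaments give the axon, and on the release machinery of their central terminals.

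The counts per library summed to between 29482263 and 53150135 in Aδ-LTMRs and between 22651313 and 55983697 in Aβ RA-LTMRs. Pearson's r of log2 CPM across genes, which are not independent replicates, was 0.951 to 0.976 between libraries of Aδ-LTMRs, 0.949 to 0.985 between libraries of Aβ RA-LTMRs and 0.909 to 0.953 between the groups. Some libraries stood apart in the alignment summary. Mapping rates were low in Aδ-LTMR library 1 (61.4%) and library 2 (74.5%), against 93.7% to 97.7% in the other 6 libraries. Reads were 15 to 51 bases long in Aδ-LTMR libraries 1 and 2, 15 to 50 in Aδ-LTMR library 3 and Aβ RA-LTMR libraries 4 and 5, and 25 to 50 in Aβ RA-LTMR libraries 1 to 3. The exonic share was lowest in Aβ RA-LTMR library 5, at 45.7%. Comparing Aδ-LTMR library 3 with Aβ RA-LTMR libraries 4 and 5 alone therefore holds read length fixed, and its log2 fold changes are given below as those within the read-length class.

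Levels are CPM, the read count scaled to the library's total by TMM, listed for Aδ-LTMR libraries 1 to 3 and then for Aβ RA-LTMR libraries 1 to 5, or given as mean ± SD with n = 3 and n = 5. Each log2 fold change (log2FC) is Aδ-LTMRs over Aβ RA-LTMRs. Beside it stand its SE and the p of edgeR's quasi-likelihood test, adjusted by Benjamini-Hochberg over the 17411 genes tested. A gene was called higher or lower at an adjusted p under 0.05 and a log2FC of at least 1 or at most -1. The p-values measure the spread between these libraries, which may in part be technical. In sorted pools, fewer cells of a type and less RNA per cell cannot be told apart.

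The labels were read first on the genes of the reporters. Ntrk2, the gene of the BDNF receptor TrkB, stood at 501, 644 and 424 CPM in Aδ-LTMRs, against 444, 426, 474, 423 and 431 CPM in Aβ RA-LTMRs (adjusted p = 0.377, log2FC 0.25, SE 0.18). The groups overlapped, and Ntrk2 was not called. Npy2r, a neuropeptide Y receptor, stood at 12.4, 3.08 and 4.42 CPM in Aδ-LTMRs, against 15.4, 25.9, 25.1, 19.9 and 15.6 CPM in Aβ RA-LTMRs (adjusted p = 0.0936, log2FC -1.62, SE 0.67). Every Aδ-LTMR library lay below every Aβ RA-LTMR library, but the difference did not pass. Without Aδ-LTMR library 1, the highest of its group, it was log2FC -2.47, adjusted p = 0.055. Over all omissions of 1 library the log2FC ran from -2.47 to -1.338, with an edgeR adjusted p of up to 0.308. Npy2r did pass when the 8 libraries were fitted alone (edgeR adjusted p = 0.0269) and by limma on log2(RPKM + 1) or log2(RPKM + 0.1), with adjusted p of 1.95e-05 and 0.00249.

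Of 10 Aδ-LTMR markers, 6 were higher in Aδ-LTMRs and none lower, against 8.28% and 2.72% of all genes tested. The marker lists of both groups were drawn up with earlier results of these libraries known, so their shares are no test of the labels. Necab2, a neuronal calcium-binding protein, stood at 27.1, 46.9 and 73.5 CPM in Aδ-LTMRs, against 6.11, 6.51, 8.27, 4.93 and 11.2 CPM in Aβ RA-LTMRs (adjusted p = 2.8e-06, log2FC 2.73, SE 0.33). Cacna1h, the T-type calcium channel that these neurons are known for, stood at 169.5, 256 and 268 CPM in Aδ-LTMRs, against 42.8, 44, 48.6, 28.7 and 36.2 CPM in Aβ RA-LTMRs (adjusted p = 2.5e-07, log2FC 2.53, SE 0.26). The groups did not overlap for either gene. Fam19a4, a secreted peptide, Bdnf, the neurotrophin, the modulatory potassium channel subunit Kcnv1 and Colq, the collagen tail of acetylcholinesterase, were also called. Fam19a4 averaged 10.2 ± 4.06 CPM in Aδ-LTMRs and 1.3 ± 0.404 CPM in Aβ RA-LTMRs (adjusted p = 4.4e-08, log2FC 2.93, SE 0.27), and Bdnf averaged 42.1 ± 8.94 CPM in Aδ-LTMRs and 11.6 ± 3.65 CPM in Aβ RA-LTMRs (adjusted p = 1.8e-06, log2FC 1.86, SE 0.22). Fam19a4 is also a C-LTMR gene, and the difference was 3.44% of its level there. Kcnv1 (adjusted p = 0.00689, log2FC 3.04, SE 0.77) overlapped between the groups, and it missed the threshold without Aδ-LTMR library 1 (log2FC 2.22, adjusted p = 0.0998) and had log2FC 4.07, adjusted p = 5.1e-04 without Aβ RA-LTMR library 4. Colq (adjusted p = 0.0489, log2FC 1.56, SE 0.56) missed it whichever library was left out, with a highest adjusted p of 0.21. Kcnip4, Shox2, Runx3 and Ntrk2 were not called.

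Of 10 Aβ RA-LTMR markers, 4 were lower in Aδ-LTMRs and none higher. Ret, the receptor tyrosine kinase for GDNF-family ligands, stood at 206, 153 and 217 CPM in Aδ-LTMRs, against 629, 533, 617, 464 and 582 CPM in Aβ RA-LTMRs (adjusted p = 1.0e-06, log2FC -1.56, SE 0.18). Calb1, the calcium buffer calbindin, stood at 123, 81.4 and 80.7 CPM in Aδ-LTMRs, against 383, 493, 425, 189.6 and 365 CPM in Aβ RA-LTMRs (adjusted p = 0.00944, log2FC -1.97, SE 0.52). No library of either group reached the other, although Calb1 missed the threshold without Aδ-LTMR library 2 (log2FC -1.91, adjusted p = 0.0561). Cbln4, a cerebellin that acts at synapses, stood at 4.06, 1.82 and 0.834 CPM in Aδ-LTMRs, against 13.3, 14.8, 15, 17.2 and 8.9 CPM in Aβ RA-LTMRs (adjusted p = 0.00398, log2FC -2.64, SE 0.63); without Aδ-LTMR library 1 it had log2FC -3.45, adjusted p = 0.00358. Mafa, a transcription factor of early Ret-positive mechanoreceptors, had 1 count in all Aδ-LTMR libraries and 0.129 to 0.400 CPM in the Aβ RA-LTMR libraries, too few for a fold change. Its call was lost without any library other than Aβ RA-LTMR library 3, with an adjusted p of up to 0.154. Gfra2, Maf, Ntrk3, Pcdh7 and Pvalb were not called. With 1 library left out in turn, Gfra2 had a log2FC of 0.609 to 0.8 and Maf of 0.269 to 1.009. Both leaned higher in Aδ-LTMRs, whereas Ntrk3 (-0.425 to -0.135) and Pvalb (-0.86 to -0.307) leaned lower. The adhesion gene Pcdh7 was lower in every Aδ-LTMR library, at 129, 124 and 151 CPM in Aδ-LTMRs, against 213, 238, 256, 187 and 207 CPM in Aβ RA-LTMRs, but its log2FC of -0.71 was under the size asked for.

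Across all genes, 1441 (8.28% of 17411) were higher in Aδ-LTMRs and 473 (2.72%) lower. The median log2FC over all genes tested was 0.01. Most differences were moderate: 757 of the higher genes had a log2FC under 2, and 339 of the lower ones a log2FC above -2. The median higher gene stood at 8.43 CPM in Aδ-LTMRs and 2.25 CPM in Aβ RA-LTMRs, and the median lower gene at 2.88 CPM in Aδ-LTMRs and 8.21 CPM in Aβ RA-LTMRs. The libraries of the groups did not overlap for 988 of the higher genes and 405 of the lower ones. The calls were made on these same libraries, so the counts describe the calls and are no separate support. The share without overlap over all genes tested is not given here. Aδ-LTMR library 3 was the lowest of its group for 929 of the 1441 higher genes, and it alone overlapped with Aβ RA-LTMRs for 361 of the 453 that overlapped. Without it 1830 genes were higher and 1011 lower. Within the read-length class 1271 of the 1439 higher genes that have a value there kept their sign. Among them 848 had a log2FC of at least 1. Of the 473 lower genes, 471 kept their sign and 361 had a log2FC of at most -1. The libraries of that class, 1 of Aδ-LTMRs and 2 of Aβ RA-LTMRs, also entered the calls, so kept signs are no independent check.

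**Figure D1:**
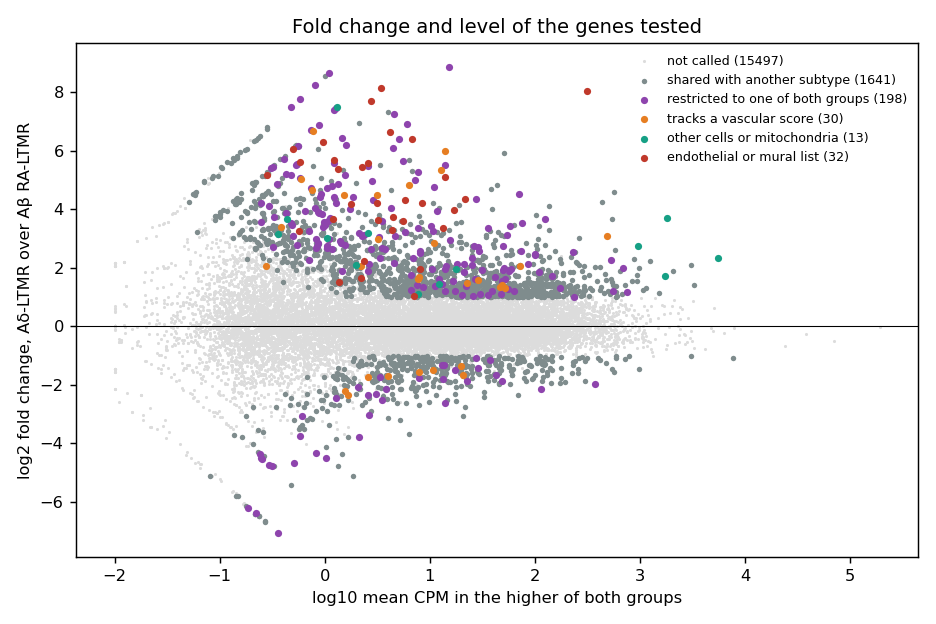
Log2 fold change of Aδ-LTMRs over Aβ RA-LTMRs (y axis) against log10 of the mean CPM in the higher group (x axis) for the 17411 genes tested. Grey points are not called; colours mark called genes by class, as described in the text, and the 32 called endothelial or mural genes lie above 0 throughout.

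Endothelial and mural genes, which line and wrap blood vessels and are not expected of neurons, made up a set of their own. Of 38 endothelial genes tested, 26 were higher in Aδ-LTMRs and none lower, with a median log2FC of 3.64 and of 2.38 within the read-length class. Cdh5, the cadherin of endothelial junctions, stood at 10.2, 6.13 and 4.07 CPM in Aδ-LTMRs, against 0, 0.126, 0.0184, 0.0888 and 0.187 CPM in Aβ RA-LTMRs (adjusted p = 1.4e-04, log2FC 6.42, SE 1.07). Abcb1a, the drug efflux pump of brain and nerve vessels, stood at 18.6, 16.3 and 7.35 CPM in Aδ-LTMRs, against 0.435, 0.209, 0.405, 0.844 and 0.219 CPM in Aβ RA-LTMRs (adjusted p = 9.0e-06, log2FC 5.1, SE 0.68), and Ptprb, the vascular tyrosine phosphatase, at 20.8, 11.2 and 8.28 CPM in Aδ-LTMRs, against 0.399, 0.502, 1.31, 0.977 and 3.37 CPM in Aβ RA-LTMRs (adjusted p = 2.0e-04, log2FC 3.37, SE 0.58). Without Aβ RA-LTMR library 5, its highest, Ptprb had log2FC 4.08, adjusted p = 2.0e-05. The receptor gene Tek had 1.28 to 5.36 CPM in Aδ-LTMRs and at most 0.0312 CPM in Aβ RA-LTMRs. Each of these genes ran in the order library 1, 2, 3 within Aδ-LTMRs, from highest to lowest, which is also the order of their mapping rates from lowest to highest; the part of the mapping rate was not tested. The list summed to 120 to 237 CPM in Aδ-LTMR libraries and 27.6 to 63.1 CPM in Aβ RA-LTMR libraries, and 38 to 40 of its 40 genes had a count in each Aδ-LTMR library, against 28 to 35 in each Aβ RA-LTMR library.

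Of 21 mural genes tested, 6 were higher and none lower, with a median log2FC of 0.76, or 0.79 within the read-length class. The list summed to 812, 543 and 461 CPM in Aδ-LTMR libraries 1 to 3, of which Rgs5 alone gave 509.6, 261 and 162 CPM. In Aβ RA-LTMR libraries the list summed to 213 to 416 CPM, of which Rgs5 gave at most 2.47 CPM. Without Rgs5 the sums of the Aδ-LTMR libraries would lie within the range of the Aβ RA-LTMR sums, so the higher sums rest on this gene. Ndufa4l2 was at 0 in all Aβ RA-LTMR libraries. Acta2, smooth muscle actin, stood at 7.88, 2.3 and 3.24 CPM in Aδ-LTMRs, against 0.399, 0.126, 0.147, 0.844 and 0.219 CPM in Aβ RA-LTMRs (adjusted p = 4.8e-04, log2FC 3.75, SE 0.70), and Myh11, smooth muscle myosin, at 6.08, 1.78 and 1.75 CPM in Aδ-LTMRs, against 0.399, 0.481, 0.147, 0.133 and 0.0937 CPM in Aβ RA-LTMRs (adjusted p = 0.00252, log2FC 3.62, SE 0.81). Aδ-LTMR library 1 was highest for both, and without it Acta2 had log2FC 3.01, adjusted p = 0.0114 and Myh11 log2FC 2.73, adjusted p = 0.0488. Rgs5, a regulator of G-protein signalling that marks pericytes, stood at 509.6, 261 and 162 CPM in Aδ-LTMRs, against 0.0363, 0.962, 1.03, 1.69 and 2.47 CPM in Aβ RA-LTMRs (adjusted p = 1.6e-04, log2FC 8.05, SE 1.28). All Aδ-LTMR libraries were far above Aβ RA-LTMRs, and C-LTMRs held more Rgs5 still, 1273 CPM; without Aδ-LTMR library 1 it had log2FC 7.46, adjusted p = 0.00105. Fibroblast genes had 4 of 14 called higher (28.6%) and Schwann cell genes 2 of 13 (15.4%), against 8.28% of all genes tested. The 13 satellite glia genes had a median log2FC of -0.17. Of 5 macrophage and 5 erythroid genes tested, 1 each was higher. For Schwann cell genes summed levels were 3150 to 5150 CPM in Aδ-LTMRs against 1540 to 2370 CPM in Aβ RA-LTMRs. For satellite glia genes they were 1690 to 2610 CPM in Aδ-LTMRs against 2080 to 4040 CPM in Aβ RA-LTMRs, for fibroblast genes 130 to 197 CPM against 112 to 161 CPM, and for macrophage genes 1.6 to 1.73 CPM against 1.03 to 2.1 CPM. Emr1 and Tyrobp were at 0 in all Aδ-LTMR libraries and Fcer1g in all Aβ RA-LTMR libraries. The part of these cells in other results was not tested. Dcn, the matrix proteoglycan decorin, averaged 17.8 ± 2.39 CPM in Aδ-LTMRs and 4.62 ± 2.1 CPM in Aβ RA-LTMRs (adjusted p = 4.6e-05, log2FC 1.96, SE 0.29). Pmp22, a myelin membrane protein, averaged 1715 ± 411 CPM in Aδ-LTMRs and 522 ± 101 CPM in Aβ RA-LTMRs (adjusted p = 6.7e-07, log2FC 1.72, SE 0.19), with a higher mean, 2429 CPM, in C-LTMRs.

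**Figure D2:**
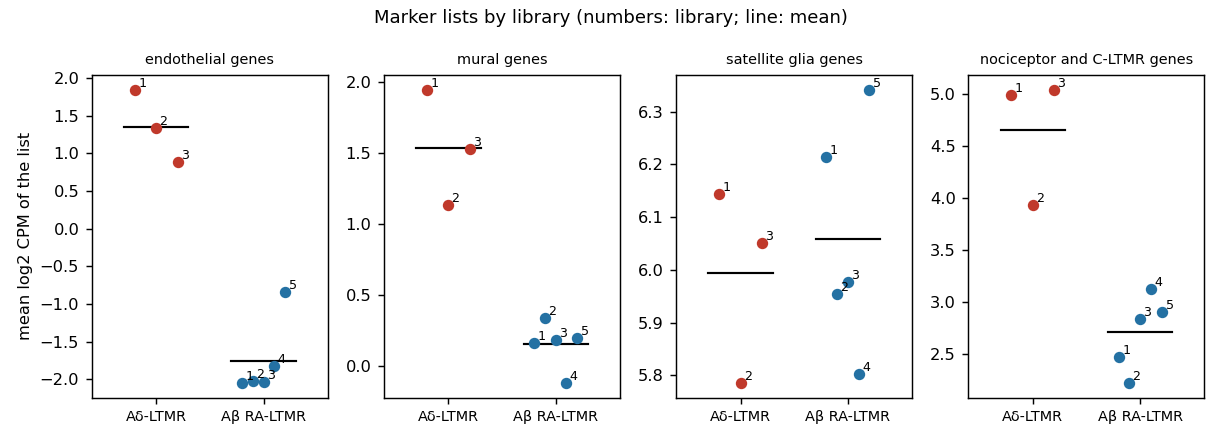
Mean log2 CPM of the genes of 4 marker lists (y axis, 1 scale per panel) in each Aδ-LTMR and each Aβ RA-LTMR library; numbers name the library and lines give the mean. Aδ-LTMR libraries lie above all Aβ RA-LTMR libraries for endothelial, mural and for nociceptor and C-LTMR genes, and overlap with them for satellite glia genes.

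Whether a gene moved with vascular RNA was read in several ways. The endothelial score, the mean log2 CPM of its list, was 1.85, 1.34 and 0.88 in Aδ-LTMR libraries 1 to 3, whereas Aβ RA-LTMR libraries ranged over -2.05 to -0.85. These ranges do not meet, so score and subtype are hard to separate in a fit. With endothelial and mural scores as covariates 22 genes were higher (0.126% of those tested) and 6 lower (0.0345%), of which 19 and 5 were also called without the scores. The 19 included P2ry1, Pdlim1, Efhd2, Syt1 and Plk2, and the 5 included Pak1. Without regard to calls, 1227 of the 1441 higher genes and 455 of the 473 lower ones kept their sign under the scores. The median log2FC of the endothelial genes, of which the score is made, became -0.53. A gene was said to track vascular RNA when its log2 CPM, centred within each subtype, had a Pearson's r of at least 0.6 with a vascular score over the 26 libraries. This held for 22 of the higher genes outside the lists, among them Cd93, at 20.2, 12.1 and 9.04 CPM in Aδ-LTMRs, against 0.127, 0.0837, 0, 0.133 and 0.812 CPM in Aβ RA-LTMRs, and Cxcl12, at 16.3, 13.4 and 8.49 CPM in Aδ-LTMRs, against 0.109, 0.293, 0.166, 0.444 and 0.625 CPM in Aβ RA-LTMRs, both chosen for mention after their values were seen. Cd93, a surface glycoprotein (adjusted p = 2.0e-04, log2FC 5.98, SE 1.03), and Cxcl12, a chemokine (adjusted p = 1.1e-05, log2FC 5.34, SE 0.70), are known from endothelium. Without Aβ RA-LTMR library 5, Cd93 had log2FC 7.38, adjusted p = 4.8e-05. Only 11 of the 38 endothelial genes themselves reached that r, so a gene of endothelium can fall short of it.

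Genes on no list of other cells made up most of the summed difference. The lists name few of the genes tested, so unlisted genes of other cells count among the rest. The sums below therefore describe the classes and do not separate neuronal from vascular RNA. Set aside were the 32 called genes of vascular lists, 13 of other cells or mitochondria and the 22 that track. The remaining higher genes fell into 1212 whose mean in 1 of the 6 other subtypes reached at least 50% of the Aδ-LTMR mean, here called shared, and 162 below that, here called restricted. The difference in mean CPM between Aδ-LTMRs and Aβ RA-LTMRs summed to 46900 CPM over the shared genes, 3990 CPM over the restricted, 669 CPM over those that track, 448 CPM over the vascular lists and 8070 CPM over other cells and mitochondria, of which mitochondrially encoded genes alone gave 6850 CPM. Rgs5 made up most of the sum over the vascular lists. Of the 26 called endothelial genes 7 reached 50% of the Aδ-LTMR level in another subtype, against 1245 of all 1441. The shared genes had their highest other mean in nonpeptidergic nociceptors for 351 genes (29%, against 23.2% of all genes tested), in C-LTMRs for 312 (25.7%, against 14.8%) and in peptidergic nociceptors for 254 (21%, against 13.3%). Of the 473 lower genes, 429 were shared, most often with Aβ SA1-LTMRs (140, or 32.6%, against 14.1% of all genes tested) or proprioceptors (138, or 32.2%, against 22.9%).

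**Figure D3:**
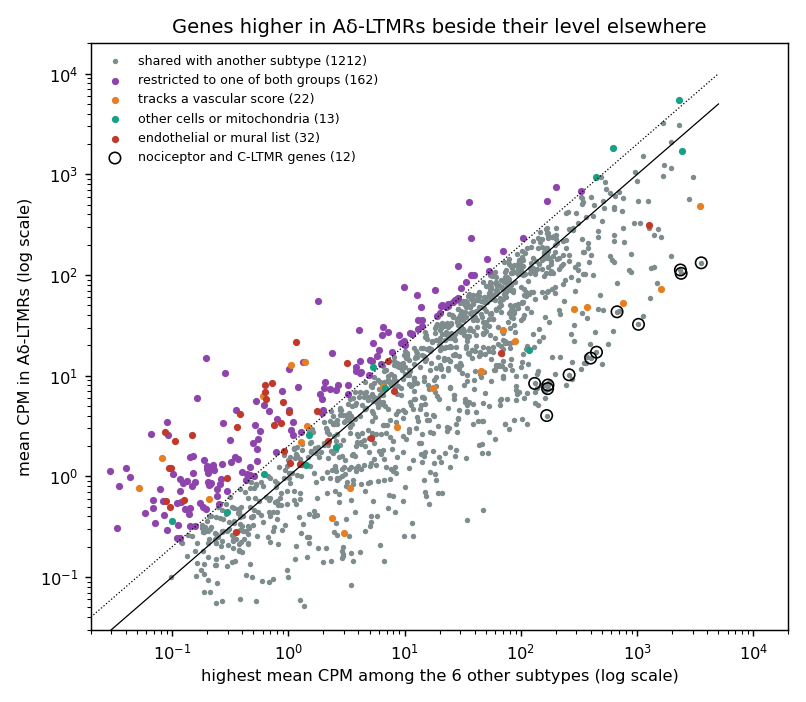
Mean CPM in Aδ-LTMRs (y axis, log scale) against the highest mean CPM among the 6 other subtypes (x axis, log scale) for the 1441 genes higher in Aδ-LTMRs. The solid line marks equal levels and the dotted line the 50% that divides shared from restricted; the 12 circled nociceptor and C-LTMR genes lie far to the right of the solid line, at a few percent of their level elsewhere.

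Genes that define nociceptors and C-LTMRs were higher as well, at low levels. Of 13 such genes, 12 were called, and the remaining one, Prph, was not. The examples were chosen after their values were seen. Scn10a, a sodium channel of nociceptors, stood at 152, 71 and 114 CPM in Aδ-LTMRs, against 19.5, 8.79, 22.2, 54.2 and 42.3 CPM in Aβ RA-LTMRs (adjusted p = 0.00241, log2FC 1.94, SE 0.43). Mrgprd, their Mas-related receptor, stood at 35.4, 28.9 and 32.8 CPM in Aδ-LTMRs, against 5.35, 1.17, 5.17, 14.5 and 15.7 CPM in Aβ RA-LTMRs (adjusted p = 0.00807, log2FC 1.97, SE 0.51). Tac1, the substance P gene, stood at 47.8, 16.2 and 65.5 CPM in Aδ-LTMRs, against 5.53, 6.46, 9.43, 9.55 and 12.1 CPM in Aβ RA-LTMRs (adjusted p = 7.5e-05, log2FC 2.33, SE 0.37). Nonpeptidergic nociceptors averaged 2353 CPM of Scn10a and 1026 CPM of Mrgprd, and peptidergic nociceptors 671 CPM of Tac1. The difference between Aδ-LTMRs and Aβ RA-LTMRs came to 1.95% to 5.15% of the highest other subtype's level over these 12 genes. That share was above 5.15% for 1352 of the 1441 higher genes (93.8%), and its median was 56.8%. For P2ry1 it was 55.4%, for Syt1 64.5% and for Pde1c 98.3%. The 12 genes were listed for their high level in nociceptors or C-LTMRs, which makes their shares small from the start. For the other higher genes the highest subtype can be any of the others. The shares thus cannot tell how much RNA came from other neurons. With the mean log2 CPM of the 13 genes as a covariate, chosen after seeing the data, 256 genes were higher and 42 lower. What part RNA of other neurons has in the calls was not tested further.

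The genes with the smallest p at 10 CPM or more are described next, 12 in each direction over all genes tested, of which the first are given in full. The libraries of the groups overlapped for none of them. P2ry1, a receptor for ADP that couples to calcium release (mm10, chr3:61002795-61008982, plus strand), stood at 379, 574 and 349 CPM in Aδ-LTMRs, against 24.4, 25.1, 24.1, 20.1 and 21.6 CPM in Aβ RA-LTMRs (adjusted p = 8.3e-12, log2FC 4.23, SE 0.23). It led all genes by p, and its log2FC was 4.04 within the read-length class and 5.45 with the vascular scores, where it was still called. Pde1c, a calmodulin-dependent phosphodiesterase for cyclic nucleotides, stood at 512, 668 and 434 CPM in Aδ-LTMRs, against 38.9, 55.6, 51.8, 28.9 and 35.2 CPM in Aβ RA-LTMRs (adjusted p = 1.7e-10, log2FC 3.67, SE 0.23). Syt1, the calcium sensor of fast transmitter release, stood at 551, 657 and 537 CPM in Aδ-LTMRs, against 99, 89, 132, 87.4 and 68.5 CPM in Aβ RA-LTMRs (adjusted p = 2.6e-10, log2FC 2.61, SE 0.17), and Pdlim1, a PDZ and LIM domain protein of the actin cytoskeleton, at 20.7, 39.2 and 54.3 CPM in Aδ-LTMRs, against 0.907, 1.57, 1.49, 1.47 and 2.03 CPM in Aβ RA-LTMRs (adjusted p = 2.6e-10, log2FC 4.68, SE 0.31). Every Aδ-LTMR library lay several-fold above every Aβ RA-LTMR library for these genes, as the plot of genes by library shows. Nxpe2, of the neurexophilin family, had the largest fold among the 12 (adjusted p = 7.4e-10, log2FC 5.91, SE 0.43). The others were Ldb2, a LIM-domain binding cofactor, Plk2, an activity-induced kinase, the G-protein subunit Gnb4, the scaffold Sdcbp, Slc25a24, Lrrc3 and the potassium channel Kcnc2. All but Plk2 were shared, with C-LTMRs or nociceptors highest among the other subtypes.

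Among the genes lower in Aδ-LTMRs, Pak1, a kinase that acts on the cytoskeleton downstream of small GTPases (mm10, chr7:97788541-97912381, plus strand), stood at 90.6, 71.7 and 82.6 CPM in Aδ-LTMRs, against 292, 290.5, 280.1, 309.7 and 323 CPM in Aβ RA-LTMRs (adjusted p = 5.4e-10, log2FC -1.87, SE 0.13). It was lower by a like factor in each Aδ-LTMR library, and it was called with the vascular scores, with read-length class and with the nociceptor and C-LTMR score as covariates. Maneal, a glycosidase-like protein, stood at 48.5, 49.9 and 56.3 CPM in Aδ-LTMRs, against 112, 117, 120.5, 116 and 118 CPM in Aβ RA-LTMRs (adjusted p = 1.4e-07, log2FC -1.18, SE 0.12), with little spread in either group. Tmem229b averaged 45.3 ± 8.37 CPM in Aδ-LTMRs and 172 ± 10.7 CPM in Aβ RA-LTMRs (adjusted p = 1.4e-07, log2FC -1.92, SE 0.19). Arhgef4, an exchange factor for small GTPases, averaged 35.9 ± 6.33 CPM in Aδ-LTMRs and 90.1 ± 9.44 CPM in Aβ RA-LTMRs (adjusted p = 1.3e-06, log2FC -1.33, SE 0.15), and Sgpp2, a sphingosine phosphate phosphatase, averaged 190.0 ± 12.3 CPM in Aδ-LTMRs and 400.3 ± 26.9 CPM in Aβ RA-LTMRs (adjusted p = 1.7e-06, log2FC -1.07, SE 0.13). Ret, P2rx5, Prokr1, Plekhh1, Clmp, Sphkap and Omg completed the 12. For these genes the highest other mean lay in Aβ SA1-LTMRs, proprioceptors or Aβ Field-LTMRs, except for Ret (C-LTMRs) and Plekhh1 (peptidergic nociceptors).

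The sequence before the start of transcription is shown for a pair of genes from each direction, 1 marker and 1 leading gene each, because genes of the EBF and MAF families of transcription factors were among those called. Below are the 250 bases upstream of the annotated start from RefSeq (GRCm38.p6, the build also called mm10), read 5′ to 3′ on the gene's strand. Capitals mark the letters CCCNNGGG, the core bound by EBF factors, or TGCTGA, the core of the site bound by MAF factors, on either strand. Necab2 and Cbln4 have 1 start in the table, Pak1 has 2 and Pde1c 3, of which the first listed is shown.
Necab2, plus strand, chr8:119446469-119446718: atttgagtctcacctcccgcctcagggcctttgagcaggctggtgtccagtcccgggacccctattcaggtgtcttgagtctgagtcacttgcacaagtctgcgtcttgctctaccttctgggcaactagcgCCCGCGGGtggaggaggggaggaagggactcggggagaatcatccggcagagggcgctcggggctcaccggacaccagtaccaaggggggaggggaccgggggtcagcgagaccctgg
Pde1c, minus strand, chr6:56362393-56362642: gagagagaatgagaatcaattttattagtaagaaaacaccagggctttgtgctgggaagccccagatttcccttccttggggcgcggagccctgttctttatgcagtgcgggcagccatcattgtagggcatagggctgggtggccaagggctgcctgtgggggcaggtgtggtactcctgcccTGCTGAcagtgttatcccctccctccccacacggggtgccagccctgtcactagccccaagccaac
Pak1, plus strand, chr7:97788291-97788540: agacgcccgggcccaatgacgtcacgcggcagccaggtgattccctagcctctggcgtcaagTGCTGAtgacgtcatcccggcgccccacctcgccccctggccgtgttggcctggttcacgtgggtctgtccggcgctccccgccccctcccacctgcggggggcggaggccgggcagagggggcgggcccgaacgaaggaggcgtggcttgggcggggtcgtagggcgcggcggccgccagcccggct
Cbln4, minus strand, chr2:172043467-172043716: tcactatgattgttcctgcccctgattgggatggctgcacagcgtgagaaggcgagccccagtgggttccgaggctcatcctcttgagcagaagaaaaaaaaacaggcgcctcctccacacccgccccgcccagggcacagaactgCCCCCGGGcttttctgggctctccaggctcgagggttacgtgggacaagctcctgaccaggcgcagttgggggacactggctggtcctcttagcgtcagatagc
The EBF core occurs 1 time in each window of Necab2 and Cbln4, and the MAF core 1 time in each of Pde1c and Pak1. Each core is thus shown in both directions, but so few genes do not stand for either direction. Over all 15072 promoters of tested genes, 15.6% hold the EBF core, against 17.9% of 1225 promoters of higher genes and 16.2% of 432 of lower genes. The MAF core was in 13.5% of all, 15.5% of the higher and 15.7% of the lower ones. The letters ATCGAT, bound by ONECUT factors, were in 0.71% of all, 0.735% of the higher and 0.694% of the lower ones. These matches describe letters in the window and say nothing about binding.

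Voltage-gated potassium channels differed in both directions. Of 51 genes tested, 12 were higher and 7 lower in Aδ-LTMRs (23.5% and 13.7%). Over all genes tested the shares were 8.28% and 2.72%, which is the base for each list below. Kcnc2, a fast delayed rectifier of the Shaw family, stood at 38.2, 47.6 and 26.7 CPM in Aδ-LTMRs, against 2.39, 4.25, 4.38, 3.46 and 4.87 CPM in Aβ RA-LTMRs (adjusted p = 5.6e-09, log2FC 3.27, SE 0.27). Every Aδ-LTMR library lay above every Aβ RA-LTMR library. Channels of the Erg family, which deactivate slowly, went both ways. Kcnh7 averaged 942 ± 324 CPM in Aδ-LTMRs and 325 ± 122 CPM in Aβ RA-LTMRs (adjusted p = 2.1e-04, log2FC 1.54, SE 0.27), whereas Kcnh2 stood at 54.2, 55.3 and 90.5 CPM in Aδ-LTMRs, against 168, 157, 172, 159 and 233 CPM in Aβ RA-LTMRs (adjusted p = 8.6e-05, log2FC -1.42, SE 0.23). These relatives were thus called in opposite directions, with no overlap between libraries for either gene. The A-type channel genes Kcna4 (adjusted p = 2.5e-05, log2FC 2.8, SE 0.40) and Kcnd3 (adjusted p = 1.5e-04, log2FC 1.49, SE 0.25) were higher; for Kcnd3 the difference came to 5.75% of the C-LTMR level, near the range of the nociceptor and C-LTMR genes. Kcng4, a silent modulatory subunit, was lower (adjusted p = 0.00263, log2FC -1.74, SE 0.39). The libraries did not overlap for these 3 genes either. Among 32 other potassium channels 8 were higher and 2 lower. Kcnj12, an inward rectifier, averaged 44.8 ± 4.01 CPM in Aδ-LTMRs and 14.7 ± 0.856 CPM in Aβ RA-LTMRs (adjusted p = 7.6e-07, log2FC 1.61, SE 0.18), and the tandem-pore channel Kcnk18, a brake on excitability, averaged 25.4 ± 7.7 CPM in Aδ-LTMRs and 4.74 ± 1.4 CPM in Aβ RA-LTMRs (adjusted p = 1.3e-04, log2FC 2.42, SE 0.40). Kcnmb1, an accessory subunit of calcium-activated channels, averaged 8.74 ± 3.39 CPM in Aδ-LTMRs and 2.19 ± 1.54 CPM in Aβ RA-LTMRs (adjusted p = 8.9e-04, log2FC 2.06, SE 0.41). For Kcnmb1 the difference came to 3.75% of the level in nonpeptidergic nociceptors, inside the range of the nociceptor and C-LTMR genes, and with their score as a covariate the log2FC was -0.49.

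Of 18 sodium channels and their partners, 7 were higher in Aδ-LTMRs and 1 lower. Scn3a, a channel of developing neurons, stood at 16.3, 16.8 and 11.5 CPM in Aδ-LTMRs, against 4.14, 4.43, 4.51, 4.8 and 3.0 CPM in Aβ RA-LTMRs (adjusted p = 8.5e-05, log2FC 1.83, SE 0.29). All Aδ-LTMR libraries exceeded all Aβ RA-LTMR libraries. The 3 called fibroblast growth factor homologous factors, which bind sodium channels and set their inactivation, split by gene. Fgf13 stood at 565, 693 and 381 CPM in Aδ-LTMRs, against 201, 178, 157, 217 and 277 CPM in Aβ RA-LTMRs (adjusted p = 1.0e-05, log2FC 1.41, SE 0.19) and Fgf11 at 15, 6.06 and 13.5 CPM in Aδ-LTMRs, against 49.1, 43.3, 45.9, 51.7 and 37.1 CPM in Aβ RA-LTMRs (adjusted p = 1.3e-04, log2FC -1.98, SE 0.33). Fgf12 stood at 629, 605 and 160.3 CPM in Aδ-LTMRs, against 124, 139, 140.4, 137 and 139 CPM in Aβ RA-LTMRs (adjusted p = 2.5e-04, log2FC 1.77, SE 0.31). Its Aδ-LTMR library 3 lay near the Aβ RA-LTMR libraries, and its log2FC within the read-length class was 0.18. That of Fgf13 was 0.60.

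Of 23 calcium channel genes, 6 were higher and 3 lower. Beside Cacna1h, the auxiliary subunit Cacna2d1, a target of gabapentin, stood at 180.5, 151 and 89.3 CPM in Aδ-LTMRs, against 41.7, 38.9, 60.4, 30.6 and 23.8 CPM in Aβ RA-LTMRs (adjusted p = 4.2e-06, log2FC 1.84, SE 0.23). Cacna1b, the N-type channel of presynaptic terminals, was close to the size threshold (adjusted p = 6.5e-04, log2FC 1.06, SE 0.20) and fell under it without Aδ-LTMR library 2 (log2FC 0.78, adjusted p = 0.0211) or Aβ RA-LTMR library 5 (log2FC 0.93, adjusted p = 0.00148). Cacnb2, an intracellular subunit, stood at 7.71, 6.32 and 4.58 CPM in Aδ-LTMRs, against 26.6, 24.4, 23.9, 17.7 and 20.6 CPM in Aβ RA-LTMRs (adjusted p = 4.0e-05, log2FC -1.87, SE 0.28), and Cacng5, a transmembrane partner of AMPA receptors, at 22.9, 18.8 and 24.6 CPM in Aδ-LTMRs, against 67.3, 81.7, 79.9, 84.1 and 94.8 CPM in Aβ RA-LTMRs (adjusted p = 4.7e-05, log2FC -1.88, SE 0.28). The groups did not overlap for either subunit.

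Of 46 HCN, TRP, mechanosensory and acid-sensing channel genes, 7 were higher and 5 lower (15.2% and 10.9%). Ano1, a calcium-activated chloride channel, stood at 12.1, 8.55 and 7.54 CPM in Aδ-LTMRs, against 32.5, 29.9, 28.2, 26.2 and 26.1 CPM in Aβ RA-LTMRs (adjusted p = 0.00158, log2FC -1.61, SE 0.34), while its relative Ano6, a lipid scramblase, averaged 168 ± 23.3 CPM in Aδ-LTMRs and 64.7 ± 8.7 CPM in Aβ RA-LTMRs (adjusted p = 5.0e-07, log2FC 1.37, SE 0.15). The acid-sensing channel Asic1 was lower (adjusted p = 0.00356, log2FC -1.07, SE 0.25) but fell under the size threshold without Aδ-LTMR library 2 (log2FC -0.81, adjusted p = 0.0304) or Aβ RA-LTMR library 1 (log2FC -1.0, adjusted p = 0.00975).

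Among ligand-gated channels 6 of 52 were higher and 4 lower (11.5% and 7.69%, against 8.28% and 2.72% of all genes tested). The share of higher genes was thus near that over all genes. Gria1, an AMPA receptor subunit, stood at 24, 27.9 and 24.3 CPM in Aδ-LTMRs, against 1.2, 4.54, 8.03, 3.06 and 2.15 CPM in Aβ RA-LTMRs (adjusted p = 1.1e-05, log2FC 2.73, SE 0.37). Chrna6, a nicotinic receptor subunit, stood at 36.7, 52.6 and 88.8 CPM in Aδ-LTMRs, against 6.0, 5.77, 5.89, 5.78 and 25.6 CPM in Aβ RA-LTMRs (adjusted p = 0.00243, log2FC 2.6, SE 0.57). Aβ RA-LTMR library 5 was over 4 times the level of the other Aβ RA-LTMR libraries for Chrna6, and without it Chrna6 had log2FC 3.34, adjusted p = 1.2e-04. The ATP-gated channels went in both directions: P2rx3 was among the nociceptor genes above, while P2rx5 stood at 3.47, 3.94 and 5.08 CPM in Aδ-LTMRs, against 13.9, 21.3, 15.7, 12.4 and 13.8 CPM in Aβ RA-LTMRs (adjusted p = 2.4e-06, log2FC -1.89, SE 0.23) and P2rx6 at 14.8, 10.2 and 18.8 CPM in Aδ-LTMRs, against 56.3, 59, 52.6, 54.1 and 64.9 CPM in Aβ RA-LTMRs (adjusted p = 7.5e-06, log2FC -1.97, SE 0.26). With P2ry1, purine receptors thus had genes called in both directions, and the libraries of the groups overlapped for none of these 4 genes.

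G-protein-coupled receptors had 25 of 95 genes higher and 16 lower, 26.3% and 16.8%. F2rl2, a protease-activated receptor, stood at 106, 141 and 158 CPM in Aδ-LTMRs, against 4.75, 3.83, 3.89, 7.55 and 19.3 CPM in Aβ RA-LTMRs (adjusted p = 1.2e-06, log2FC 4.12, SE 0.46). Aβ RA-LTMR library 5 was highest of its group, and without it F2rl2 had log2FC 4.77, adjusted p = 1.5e-08. Grm7, a presynaptic glutamate receptor, averaged 31.9 ± 6.12 CPM in Aδ-LTMRs and 7.46 ± 1.65 CPM in Aβ RA-LTMRs (adjusted p = 7.9e-09, log2FC 2.1, SE 0.17). Calcrl, a receptor for CGRP and adrenomedullin that vessels also carry, stood at 19, 12.4 and 5.12 CPM in Aδ-LTMRs, against 0.562, 0.628, 0.70, 1.07 and 0.781 CPM in Aβ RA-LTMRs (adjusted p = 3.0e-06, log2FC 4.04, SE 0.49), in the order of the endothelial score within Aδ-LTMRs, and its log2FC with the vascular scores was 0.58. Receptor genes were also among the firmest differences in the other direction. Of these, Prokr1, for prokineticins, stood at 53.1, 57.7 and 46.3 CPM in Aδ-LTMRs, against 153, 176, 161, 134 and 107 CPM in Aβ RA-LTMRs (adjusted p = 2.9e-06, log2FC -1.48, SE 0.18). Pth1r, the parathyroid hormone receptor, averaged 7.37 ± 3.58 CPM in Aδ-LTMRs and 25 ± 6.41 CPM in Aβ RA-LTMRs (adjusted p = 7.3e-04, log2FC -1.75, SE 0.34). All Aδ-LTMR libraries lay below all Aβ RA-LTMR libraries for either gene. Cnr1, the cannabinoid receptor, averaged 48 ± 12 CPM in Aδ-LTMRs and 116 ± 26.2 CPM in Aβ RA-LTMRs (adjusted p = 0.00133, log2FC -1.28, SE 0.27). Oprk1, the kappa opioid receptor, averaged 0.952 ± 0.36 CPM in Aδ-LTMRs and 5.91 ± 1.96 CPM in Aβ RA-LTMRs (adjusted p = 0.00683, log2FC -2.61, SE 0.67); its log2FC was 0.31 with the vascular scores.

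Neuropeptides and secreted ligands had 16 of 50 genes higher and 5 lower. Vgf, a secreted precursor induced by neurotrophins, stood at 48.6, 107 and 142 CPM in Aδ-LTMRs, against 20.1, 11.1, 17.6, 20.2 and 19.4 CPM in Aβ RA-LTMRs (adjusted p = 1.6e-05, log2FC 2.49, SE 0.35), with the highest other subtype at 37.2% of the Aδ-LTMR level. Adcyap1, the PACAP gene, averaged 42.2 ± 2.57 CPM in Aδ-LTMRs and 11.4 ± 3.02 CPM in Aβ RA-LTMRs (adjusted p = 3.4e-05, log2FC 1.88, SE 0.28). Fgf9, a growth factor, averaged 9.54 ± 2.23 CPM in Aδ-LTMRs and 29.5 ± 6.45 CPM in Aβ RA-LTMRs (adjusted p = 9.4e-05, log2FC -1.63, SE 0.26), and Chgb, a granin of dense-core vesicles, averaged 184 ± 37.1 CPM in Aδ-LTMRs and 411 ± 79.1 CPM in Aβ RA-LTMRs (adjusted p = 3.0e-04, log2FC -1.16, SE 0.21). Of 33 neurotrophic and growth factor receptors 4 were higher and 3 lower (12.1% and 9.09%, against 8.28% and 2.72% of all genes tested). Gfra1, the GDNF co-receptor that works with Ret, was lower (adjusted p = 0.0033, log2FC -1.07, SE 0.25), although not without Aδ-LTMR library 3 (log2FC -0.99, adjusted p = 0.0117) or Aβ RA-LTMR library 2 (log2FC -0.98, adjusted p = 0.00936). Osmr, the oncostatin M receptor, was higher (adjusted p = 8.7e-04, log2FC 1.88, SE 0.38), and without Aδ-LTMR library 1 it had log2FC 1.25, adjusted p = 0.0392.

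Of 99 transcription factors, 23 were higher and 6 lower. Tshz3, a zinc finger factor, stood at 41.8, 52.2 and 15.6 CPM in Aδ-LTMRs, against 13.9, 10.3, 15, 9.2 and 6.18 CPM in Aβ RA-LTMRs (adjusted p = 4.9e-05, log2FC 1.74, SE 0.26). Pou4f2, of the Brn3 family of sensory neurons, stood at 116, 116 and 74 CPM in Aδ-LTMRs, against 35.3, 39.6, 44.1, 28.2 and 39.4 CPM in Aβ RA-LTMRs (adjusted p = 1.6e-04, log2FC 1.45, SE 0.24). Ebf1, of the EBF family of helix-loop-helix factors, stood at 467, 547 and 152 CPM in Aδ-LTMRs, against 137, 148, 143, 146 and 89.2 CPM in Aβ RA-LTMRs (adjusted p = 1.2e-04, log2FC 1.55, SE 0.26). Its log2FC within the read-length class was 0.34, and Aδ-LTMR library 3 lay near the Aβ RA-LTMR libraries. For Tshz3 and Pou4f2 that comparison gave 1.0 and 1.1. Onecut1, a homeobox factor, was lower (adjusted p = 0.0166, log2FC -1.39, SE 0.41) but missed the threshold without Aδ-LTMR library 2 (log2FC -1.25, adjusted p = 0.0915). Calcium-binding proteins had 7 of 41 genes higher and 5 lower. Efhd2, a small EF-hand protein, stood at 22.5, 35.6 and 44.6 CPM in Aδ-LTMRs, against 5.71, 3.72, 3.56, 4.62 and 2.03 CPM in Aβ RA-LTMRs (adjusted p = 7.5e-08, log2FC 3.12, SE 0.30), and Hpcal1, a neuronal calcium sensor, averaged 72.6 ± 37.5 CPM in Aδ-LTMRs and 17.2 ± 3.59 CPM in Aβ RA-LTMRs (adjusted p = 1.8e-05, log2FC 2.08, SE 0.29). The buffers and sensors lower in Aδ-LTMRs were of moderate size. Camk2g, a calmodulin kinase subunit, averaged 107 ± 14 CPM in Aδ-LTMRs and 243 ± 33.8 CPM in Aβ RA-LTMRs (adjusted p = 7.6e-06, log2FC -1.18, SE 0.15), Cabp1, a calmodulin-like regulator of calcium channels, averaged 19 ± 7.61 CPM in Aδ-LTMRs and 47.5 ± 7.19 CPM in Aβ RA-LTMRs (adjusted p = 5.6e-05, log2FC -1.32, SE 0.20), and Cabp7, of the same family, averaged 11.3 ± 2.59 CPM in Aδ-LTMRs and 40.6 ± 5.19 CPM in Aβ RA-LTMRs (adjusted p = 1.3e-04, log2FC -1.84, SE 0.30).

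Of 62 cytoskeletal and axon growth genes, 6 were higher and 4 lower (9.68% and 6.45%, against 8.28% and 2.72% of all genes tested). Nefm, the medium neurofilament subunit, stood at 4138, 3150.0 and 3656 CPM in Aδ-LTMRs, against 6862, 8541, 9756, 7566 and 5766 CPM in Aβ RA-LTMRs (adjusted p = 5.0e-04, log2FC -1.08, SE 0.20). Nefh, the heavy subunit, stood at 1466, 1327 and 1761 CPM in Aδ-LTMRs, against 2425, 3519, 3535, 3297 and 2542 CPM in Aβ RA-LTMRs (adjusted p = 8.4e-04, log2FC -1.01, SE 0.20). Nefl, the light subunit, averaged 7540.0 ± 2744 CPM in Aδ-LTMRs and 7892 ± 1107 CPM in Aβ RA-LTMRs (adjusted p = 0.853, log2FC -0.07, SE 0.20) and was not called. Neurofilaments set axon calibre, and the medium and heavy subunits lay lower in every Aδ-LTMR library, yet both were at the edge of the size threshold. Nefm fell under it without Aβ RA-LTMR library 3 (log2FC -0.98, adjusted p = 0.00165), and Nefh without Aδ-LTMR library 2 or any of Aβ RA-LTMR libraries 2, 3 and 4, to a log2FC of -0.96 where it was nearest 0. Tuba1a, an alpha tubulin of growing neurons, stood at 2171, 2792 and 1263 CPM in Aδ-LTMRs, against 439, 419, 487, 461 and 961 CPM in Aβ RA-LTMRs (adjusted p = 3.3e-05, log2FC 1.91, SE 0.28), and Tubb2b, a beta tubulin, at 38.9, 36.2 and 27.5 CPM in Aδ-LTMRs, against 4.93, 2.34, 4.59, 2.31 and 6.34 CPM in Aβ RA-LTMRs (adjusted p = 4.8e-05, log2FC 3.05, SE 0.46). Stmn1, a stathmin that destabilises microtubules, averaged 6.17 ± 1.77 CPM in Aδ-LTMRs and 1.61 ± 0.431 CPM in Aβ RA-LTMRs (adjusted p = 2.3e-06, log2FC 1.93, SE 0.23). These proteins belong to growing or remodelling axons. Gap43, a growth cone protein, averaged 37.2 ± 20.6 CPM in Aδ-LTMRs and 10.6 ± 3.57 CPM in Aβ RA-LTMRs (adjusted p = 4.6e-05, log2FC 1.81, SE 0.27). Tmsb4x, which binds actin monomers and was on no list, averaged 1148 ± 244 CPM in Aδ-LTMRs and 458 ± 120.2 CPM in Aβ RA-LTMRs (adjusted p = 2.5e-04, log2FC 1.33, SE 0.23). Tubulin genes are close relatives, so counting may have split their reads.

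Genes of transmitter release had 15 of 60 higher and 6 lower. Beside Syt1, its relatives Syt4 (adjusted p = 4.4e-08, log2FC 1.76, SE 0.16) and Syt6 (adjusted p = 1.3e-07, log2FC 3.8, SE 0.37) and the vesicle GTPase Rab3b were higher. Rab3b stood at 36.1, 54.8 and 83.2 CPM in Aδ-LTMRs, against 5.86, 6.49, 7.97, 2.53 and 3.84 CPM in Aβ RA-LTMRs (adjusted p = 1.2e-07, log2FC 3.43, SE 0.34). Vamp1, a synaptobrevin of the vesicle fusion machinery, stood at 339, 318 and 347 CPM in Aδ-LTMRs, against 712, 688, 710.0, 781 and 712 CPM in Aβ RA-LTMRs (adjusted p = 1.5e-05, log2FC -1.11, SE 0.15). Cplx2, a complexin that clamps fusion, averaged 52 ± 17.4 CPM in Aδ-LTMRs and 178 ± 53.1 CPM in Aβ RA-LTMRs (adjusted p = 6.1e-05, log2FC -1.78, SE 0.27), Syt2, the calcium sensor of fast synapses, averaged 201 ± 27.5 CPM in Aδ-LTMRs and 478 ± 64.8 CPM in Aβ RA-LTMRs (adjusted p = 0.00635, log2FC -1.25, SE 0.32), and Syt3 averaged 43.3 ± 15.8 CPM in Aδ-LTMRs and 104 ± 25.9 CPM in Aβ RA-LTMRs (adjusted p = 0.00441, log2FC -1.27, SE 0.30). Of the sensors of fast release named here, Syt1 was thus higher and Syt2 lower in Aδ-LTMRs. Their relative Syt9 was also called higher. Cell adhesion genes were the only list with at least 20 genes and more lower than higher calls, 7 of 103 higher and 14 lower. Cntnap4, a neurexin-like adhesion protein, averaged 11.4 ± 2.46 CPM in Aδ-LTMRs and 37.3 ± 4.37 CPM in Aβ RA-LTMRs (adjusted p = 1.5e-05, log2FC -1.71, SE 0.24), Clstn3, a synaptic calsyntenin, averaged 21.3 ± 2.18 CPM in Aδ-LTMRs and 60.6 ± 9.07 CPM in Aβ RA-LTMRs (adjusted p = 1.9e-05, log2FC -1.51, SE 0.21), and Ntng2, a netrin-G, averaged 44.5 ± 5.53 CPM in Aδ-LTMRs and 129.6 ± 6.49 CPM in Aβ RA-LTMRs (adjusted p = 4.9e-05, log2FC -1.54, SE 0.23). Lrrtm3, a postsynaptic organiser, averaged 4.08 ± 0.571 CPM in Aδ-LTMRs and 9.62 ± 2.14 CPM in Aβ RA-LTMRs (adjusted p = 1.8e-04, log2FC -1.23, SE 0.21). In the other direction Cdh9, a cadherin, averaged 5.1 ± 1.42 CPM in Aδ-LTMRs and 0.804 ± 0.642 CPM in Aβ RA-LTMRs (adjusted p = 6.9e-05, log2FC 2.59, SE 0.40), a difference of 3.09% of the C-LTMR level and so inside the range of the nociceptor and C-LTMR genes. Cadm1, an immunoglobulin adhesion protein, stood at 258, 283 and 94.6 CPM in Aδ-LTMRs, against 70.7, 78.1, 81.9, 104 and 81.3 CPM in Aβ RA-LTMRs (adjusted p = 6.9e-04, log2FC 1.35, SE 0.26). It overlapped through Aδ-LTMR library 3 and had a log2FC of 0.00 within the read-length class.

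Axon guidance genes had 6 of 72 higher (8.33%, against 8.28% of all genes tested) and 5 lower (6.94%, against 2.72%). Plxnc1, a semaphorin receptor, averaged 295 ± 39.4 CPM in Aδ-LTMRs and 92.4 ± 3.95 CPM in Aβ RA-LTMRs (adjusted p = 3.6e-06, log2FC 1.67, SE 0.21), and Robo2, a receptor for Slit proteins, averaged 529 ± 187 CPM in Aδ-LTMRs and 173 ± 30.2 CPM in Aβ RA-LTMRs (adjusted p = 6.7e-06, log2FC 1.61, SE 0.21). Slit2, a Robo ligand, averaged 28.5 ± 7.66 CPM in Aδ-LTMRs and 96.4 ± 29.3 CPM in Aβ RA-LTMRs (adjusted p = 1.2e-04, log2FC -1.76, SE 0.29), and the secreted semaphorin Sema3f averaged 4.41 ± 1.41 CPM in Aδ-LTMRs and 13.3 ± 1.92 CPM in Aβ RA-LTMRs (adjusted p = 9.2e-05, log2FC -1.58, SE 0.26). Nrp2, a semaphorin co-receptor, averaged 184 ± 50.9 CPM in Aδ-LTMRs and 65.8 ± 8.23 CPM in Aβ RA-LTMRs (adjusted p = 0.00107, log2FC 1.48, SE 0.30), and Sema5a, a transmembrane semaphorin, averaged 41.4 ± 12.3 CPM in Aδ-LTMRs and 131 ± 33.8 CPM in Aβ RA-LTMRs (adjusted p = 3.2e-04, log2FC -1.66, SE 0.30). Second messenger genes had 18 of 87 higher and 5 lower. Rgs4, which shortens G-protein signals, averaged 940.0 ± 99.5 CPM in Aδ-LTMRs and 279 ± 45 CPM in Aβ RA-LTMRs (adjusted p = 8.5e-09, log2FC 1.75, SE 0.15). Prkar1a, a regulatory subunit of protein kinase A, stood at 2957, 3597 and 3121 CPM in Aδ-LTMRs, against 1188, 1309, 1307, 875 and 1414 CPM in Aβ RA-LTMRs (adjusted p = 1.5e-05, log2FC 1.4, SE 0.19), with no overlap. Adcy2, an adenylyl cyclase, averaged 7.34 ± 2.84 CPM in Aδ-LTMRs and 22.6 ± 4.2 CPM in Aβ RA-LTMRs (adjusted p = 6.9e-05, log2FC -1.62, SE 0.25), and Ryr2, a calcium release channel, averaged 91.9 ± 25.7 CPM in Aδ-LTMRs and 230.1 ± 69.4 CPM in Aβ RA-LTMRs (adjusted p = 0.00176, log2FC -1.32, SE 0.29).

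Of 37 ion pumps, exchangers and transporters, 8 were higher and 2 lower. Fxyd2, a modulator of the sodium pump, stood at 196, 322 and 1189 CPM in Aδ-LTMRs, against 10.1, 9.08, 6.21, 15.8 and 76.5 CPM in Aβ RA-LTMRs (adjusted p = 4.2e-05, log2FC 4.6, SE 0.66). Its spread was wide: without Aδ-LTMR library 3 it had log2FC 3.47, adjusted p = 3.2e-04, and without Aβ RA-LTMR library 5 log2FC 5.8, adjusted p = 3.7e-08. Atp1b3, a subunit of that pump, averaged 251 ± 119.9 CPM in Aδ-LTMRs and 56.7 ± 5.71 CPM in Aβ RA-LTMRs (adjusted p = 4.3e-06, log2FC 2.15, SE 0.27). Fxyd6, of the same family as Fxyd2, averaged 5.95 ± 1.57 CPM in Aδ-LTMRs and 1.27 ± 0.40 CPM in Aβ RA-LTMRs (adjusted p = 4.4e-06, log2FC 2.2, SE 0.28); the difference was 2.88% of the C-LTMR level, inside the range of the nociceptor and C-LTMR genes. On the other side, Slc24a2, a potassium-dependent sodium and calcium exchanger, stood at 508, 314 and 240.4 CPM in Aδ-LTMRs, against 1047, 1092, 1183, 1005 and 591 CPM in Aβ RA-LTMRs (adjusted p = 1.2e-04, log2FC -1.47, SE 0.24). Among genes of cell maintenance, 1 of 78 oxidative phosphorylation genes was higher (1.28%) and none lower. Of 81 ribosomal protein genes 4 were higher and 1 lower (4.94% and 1.23%). Of 22 mitochondrially encoded genes 5 were higher and none lower, and within the read-length class 3 of these had a log2FC below 0. Among them mt-Nd5, a subunit of complex I, stood at 6688, 8842 and 839 CPM in Aδ-LTMRs, against 898, 1600.0, 999.5, 1416 and 531 CPM in Aβ RA-LTMRs (adjusted p = 0.00172, log2FC 2.33, SE 0.49); Aδ-LTMR library 3 lay within the range of Aβ RA-LTMRs, with a log2FC of -0.26 within the read-length class.

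**Figure D4:**
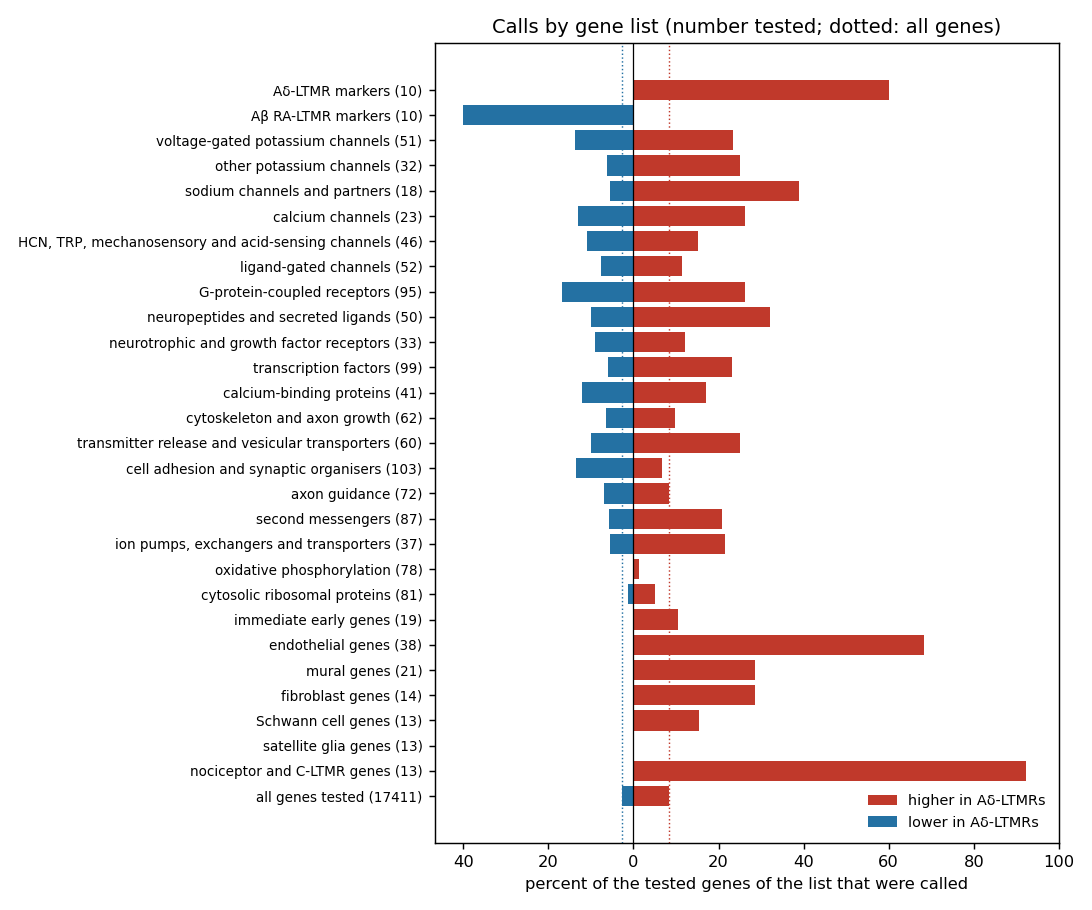
Percent of the tested genes of each list that were called higher (right of 0) or lower (left of 0) in Aδ-LTMRs; dotted lines give the shares over all 17411 genes, 8.28% and 2.72%. Nociceptor and C-LTMR genes, endothelial genes and Aδ-LTMR markers have the longest bars to the right, and Aβ RA-LTMR markers the longest to the left.

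Over the 23 neuronal lists, 1139 genes were tested, of which 189 (16.6%) were higher and 94 (8.25%) lower. The lists were drawn up with earlier results of these libraries known, so these shares describe the lists and are no test of them. Some restricted genes are added here, chosen after their values were seen. The restricted genes were not sorted by cell type, so those named do not stand for the class. It may hold further genes of vessels that are on no list and do not track. Cadps2, a priming factor for dense-core vesicles, stood at 446, 602 and 553 CPM in Aδ-LTMRs, against 108, 129, 97.3, 97.8 and 116 CPM in Aβ RA-LTMRs (adjusted p = 8.9e-07, log2FC 2.28, SE 0.26). The highest other subtype had 6.69% of the Aδ-LTMR level. Lypd1, a membrane-anchored partner of nicotinic receptors, stood at 56.8, 98.7 and 57.8 CPM in Aδ-LTMRs, against 1.6, 3.83, 5.53, 1.2 and 3.0 CPM in Aβ RA-LTMRs (adjusted p = 2.8e-06, log2FC 4.53, SE 0.54), and Slc6a19, a neutral amino acid transporter, at 38.5, 54.4 and 51.7 CPM in Aδ-LTMRs, against 11.4, 18.9, 17.2, 16.1 and 18.6 CPM in Aβ RA-LTMRs (adjusted p = 9.2e-07, log2FC 1.55, SE 0.17). Plk2 averaged 101 ± 18.8 CPM in Aδ-LTMRs and 18.5 ± 3.37 CPM in Aβ RA-LTMRs (adjusted p = 2.9e-10, log2FC 2.44, SE 0.17). Not every restricted gene is known from neurons: Sdpr, a protein of caveolae, stood at 18.8, 9.18 and 4.63 CPM in Aδ-LTMRs, against 0.236, 0.439, 0.332, 0.444 and 0.593 CPM in Aβ RA-LTMRs (adjusted p = 1.0e-07, log2FC 4.75, SE 0.46), in the order of the endothelial score, and its r with that score was 0.40. Without Aδ-LTMR library 1 it had log2FC 4.05, adjusted p = 1.9e-06.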

How the data were processed

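RNA of fluorescent neurons sorted from mouse dorsal root ganglia was sequenced in 26 libraries. The authors deposited whole-number read counts for 39017 Ensembl genes per library, a table of RPKM values, rlog values that were not used here, and an alignment summary with fractions (mapping and exonic rates), read counts and read lengths. The deposited read lengths and GC content are of another kind, given in bases or as text. Per the submitters' processing notes mm10 was the build, and FastQC 0.11.3, HTSeq 0.6.1, Cuffdiff, DESeq2 1.14.1 and STAR are named as tools without a role. The annotation and strand setting are not given in the sources used here, so antisense and overlapping genes cannot be told apart.

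From the counts, genes passing edgeR's filter for 8 groups (17411) were scaled by TMM and fitted over all 26 libraries with edgeR 4.0.16 (quasi-likelihood, robust), which lets all groups share 1 estimate of the spread, and Aδ-LTMRs were contrasted with Aβ RA-LTMRs. The Benjamini-Hochberg adjustment covered all genes tested. Scores are mean log2 CPM (prior count 2) of a list. R 4.3.3, limma 3.58.1 and DESeq2 1.42.0 served the alternatives, and matplotlib 3.10.9 the figures.

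The members and gene lists were chosen with earlier results of these data known. Named genes are the reporter genes and markers, up to 4 called genes in each direction per neuronal list by smallest p at 5 CPM or more, the 12 in each direction with the smallest p over all genes at 10 CPM or more, the 6 with the highest mean, and up to 6 called genes of each list of other cells. This rule selects 182 genes, of which a part is described, and some are not reported here. Counting intervals were not given because groups are replicated. Symbols came from the RPKM table for 38828 genes and from a gene name table for 180, and 9 have an identifier alone. The count table had no column of another series (0).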

Additional observations from a re-analysis of the deposited data

Results flagged for a closer look

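Within the 5 Aβ RA-LTMR libraries, 18 of 142 named genes had 1 library whose gap to its nearest neighbour, divided by the range, exceeded 0.71, both taken on log2 CPM. Chance flags about 1 in 20 groups. Groups of 3, such as Aδ-LTMRs, were not tested. Aβ RA-LTMR library 5 was the highest for Kcnh2 (233 CPM), Kcng4 (17.6 CPM), Chrna6 (25.6 CPM), Tuba1a (961 CPM), Tmsb4x (670 CPM) and Syt3 (150 CPM). The same library was the lowest for Plekhh1 (25.5 CPM), Clmp (45.4 CPM), Kcna4 (1.94 CPM), Cnr1 (70.2 CPM), Ebf1 (89.2 CPM), Onecut1 (7.06 CPM) and Slc24a2 (591 CPM). Library 4 was the highest for P2rx3 (10.1 CPM) and Vamp1 (781 CPM). Library 1 was the lowest for Rgs5 (0.0363 CPM) and Fgf12 (123 CPM), and library 2 for Vgf (11.1 CPM). Library 5 is also the one with the lowest exonic share, and its part in these values was not tested.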

How the results depend on the processing

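The counts of 1441 higher and 473 lower genes stayed within 1.5 times under the 8 libraries alone (997 and 420), DESeq2, its size factors, either filter on low counts, a satellite glia score, mitochondrial genes left out and limma on log2(RPKM + 0.1). Leaving out 1 library gave 901 to 1830 higher and 306 to 1011 lower genes; the extremes were without Aδ-LTMR library 1 (901), library 2 (306) and library 3 (1830 and 1011). Read-length class as a covariate gave 259 and 84, the 15 to 50 base libraries alone 445 and 154 (1 Aδ-LTMR against 2 Aβ RA-LTMR libraries, where the lone library is assumed to vary like those of the other groups), limma on log2(RPKM + 1) 509 and 213, the vascular scores 22 and 6, and the nociceptor and C-LTMR score, added after seeing the data, 256 and 42. A replicate block over libraries 1 to 3 of each group gave 730 and 317, against 966 and 426 in the same libraries without it. Same-numbered libraries had correlations of deviations of -0.0165, 0.0238 and -0.0555, and libraries of unlike number -0.0442 to 0.0689. This shows no sign that the numbers pair the libraries, but 3 libraries per group cannot exclude it. Of 130 called genes named, 120 kept their call whichever library was left out. With the vascular scores the log2FC changed sign for Cdh5 (-2.17), Ptprb (-1.21), Myh11 (-0.53), Cd93 (-1.5), Cxcl12 (-0.41), Scn10a (-0.56), Mrgprd (-0.56), Chrna6 (-1.22), Oprk1 (0.31), Osmr (-0.097) and Gap43 (-0.018), and with the nociceptor score for Kcnv1 (-1.72), Scn10a (-1.0), Mrgprd (-0.38), Kcnmb1 (-0.49) and P2rx3 (-0.34). For mt-Nd5 it was -0.21 with read-length class as a covariate and -0.26 in the 15 to 50 base libraries alone. The cause was not tested. The division into shared and restricted genes at 50% was set after seeing the data. Only 3 Aδ-LTMR libraries of unlike read length limit every comparison, and genes of low count in either group are the least certain.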
